A study of Mus musculus with 6 samples.

Results

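The Zfp36 and Btg/Tob genes encode proteins that bring the mRNA decay machinery to its targets. The genes examined here were taken by name from the deposited gene table and comprised 3 Zfp36 genes (Zfp36, Zfp36l1 and Zfp36l2) and 5 Btg/Tob genes (Btg1, Btg2, Btg3, Tob1 and Tob2), or 8 of the 53797 genes listed. RNA came from MLO-Y4 cells, a murine cell line with osteocyte-like features that was immortalised with the SV40 large T antigen. LIPUS cultures (3 libraries) received low-intensity pulsed ultrasound at 1.5 MHz and 30 mW/cm2 for 20 min, and Control cultures (3 libraries) were left untreated in wells of the same plates whose ultrasound transducers were unplugged. All cultures were grown in serum-containing medium on collagen-coated dishes, and RNA was extracted 30 min after the stimulation ended.

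The table holds a single FPKM per group, a fragment count scaled to exon length and sequencing depth and pooled by the authors over the libraries. Neither the value nor the depth of a single library can be read from it. No replicate error can therefore be given. The authors' own test results were not used, so no test is given for any difference below, and each is a comparison of 2 pooled values. The paper describes a control culture that stood apart from the rest of its group. It proposes that ultrasound leaking into control wells of the same plate may explain this variation. Such leakage was not tested, and the share of that culture in the pooled Control values could not be measured. Of the osteocyte markers, Pdpn (295 FPKM in Control, 402 in LIPUS) and Gja1 (176 and 170 FPKM) were abundant and Dmp1 was low (3.04 and 7.65 FPKM), while Sost, Mepe and Fgf23 were listed at 0. Osteoblast markers were present, with Spp1 at 4514 FPKM in Control and 4158 FPKM in LIPUS, and 3 of the 7 were at least 1.5-fold lower with LIPUS, against 9.26% of all genes with an FPKM of at least 1 in a group. These were Alpl (293 and 190 FPKM), Runx2 (24.4 and 14.8 FPKM) and Sp7 (5.86 and 3.75 FPKM). Bglap was listed at 0 in Control and had 1.58 FPKM in LIPUS. Of 6 macrophage and blood markers, 4 were listed at 0, and the list summed to 5.55 FPKM in Control and 1.96 FPKM in LIPUS, nearly all from Cd68. The endothelial and adipocyte markers each summed to less than 1 FPKM in both groups. The part of these marker differences in the results below was not tested.

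Zfp36 proteins, of which tristetraprolin (the product of Zfp36) is the best known, carry paired CCCH zinc fingers that bind AU-rich elements in the 3′ untranslated regions of cytokine and growth-factor mRNAs. They recruit the CCR4-NOT complex, which removes the poly(A) tail and so starts degradation. Btg and Tob proteins do not bind RNA through such fingers. They share a domain that binds the CCR4-NOT nucleases Cnot7 and Cnot8, and are known as brakes on proliferation. Zfp36 and Btg2 are also classical immediate-early genes, transcribed within minutes of serum, growth factor or mechanical signals.

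The mRNAs of the Zfp36 family themselves contain the element that the family recognises. The heptamer TATTTAT, which contains the pentamer ATTTA, was searched on the sense strand of the longest annotated 3′ untranslated region of each gene in GENCODE M21 (build GRCm38). Zfp36, Zfp36l1 and Zfp36l2 held 3 heptamers each, Btg2 and Tob2 held 1 each, and Btg1, Btg3 and Tob1 held 0. The sites below are shown because they are of the kind that Zfp36 proteins bind, with the heptamer in capitals and the sequence read 5′ to 3′ along the mRNA as DNA.
Zfp36, chr7:28376966-28376994, minus strand: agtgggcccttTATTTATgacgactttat
Zfp36, chr7:28376926-28376954, minus strand: agattttatagTATTTATatatattgggt
Zfp36l1, chr12:80108422-80108450, minus strand: ttatcaaaacgTATTTATtgccaaactat
Zfp36l2, chr17:84184866-84184894, minus strand: tgtccatactgTATTTATcgagtatgatg
Btg2, chr1:134077249-134077277, minus strand: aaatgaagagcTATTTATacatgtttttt
Tob2, chr15:81849860-81849888, minus strand: tatcacctgctTATTTATgtacgaggttg

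The heptamer was present in 31.6% of the 10477 genes with an FPKM of at least 1 in a group and a 3′ untranslated region of at least 100 bases, so a single copy, as in Btg2 and Tob2, was common. Copies per kilobase set the Zfp36 genes further from the rest. Zfp36 had 3.88 per kb within 774 bases, a density that 1.0% of genes reached. Zfp36l2 had 1.65 per kb and Zfp36l1 1.63 per kb, densities that 4.70% and 4.77% of genes reached. The pentamer was present in all 8 genes and in 72.1% of genes, with 4.90 copies per kb in Zfp36l1 and 1.63 in Tob2 against a median of 1.38. Apart from Zfp36 and Tob1, the regions of the 8 genes were longer than the background median of 1224 bases. Longer regions are more likely to hold a copy, so presence alone is not a like comparison. A match is a description of the sequence and not a measured binding site. The longest region of Btg3 belongs to a transcript that reaches beyond the gene's limits in the deposited table.

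**Figure D1:**
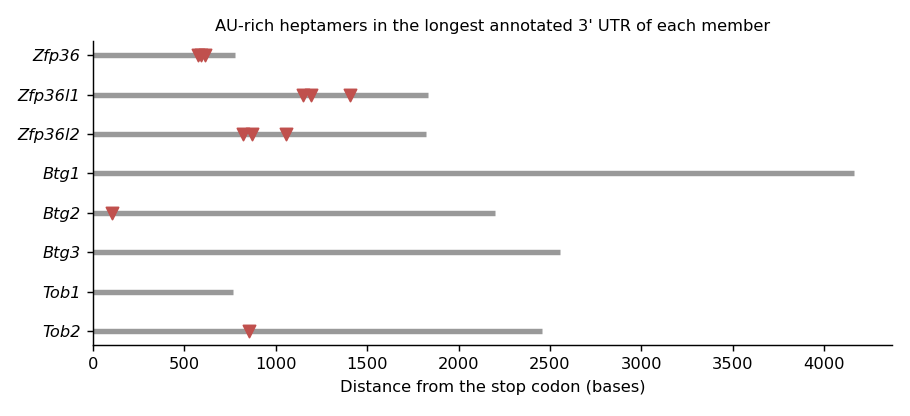
Positions of the heptamer TATTTAT (triangles) along the longest annotated 3′ untranslated region of each gene (grey bars), in bases from the stop codon. The 3 copies in Zfp36 lie close together in the last part of the shorter region of 774 bases, whereas Btg1, with 4166 bases, has 0.

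Zfp36 had the largest ratio between the groups of the 8 genes, while Btg2 and Zfp36l1 differed by more FPKM. Its level was 10.8 FPKM in Control and 23.3 FPKM in LIPUS, 2.16 times as high with LIPUS (log2 ratio 1.10). It was the least abundant of the 8 in Control cells and stood above Tob2 in LIPUS cells. In the deposited table, 0.754% of the genes with at least 10 FPKM in a group had a ratio as high, and so did 0.809% of the 4326 genes whose mean FPKM lay within 2-fold of its own. Zfp36 (ENSMUSG00000044786) lies on the minus strand of chromosome 7 of GRCm38, from 28376784 to 28380253. Its locus in the deposited table runs on to 28392708 and so spans the whole of the antisense gene Gm44710 (28378980 to 28392514).

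Zfp36l1 differed in the opposite direction. Its product shares the zinc fingers of tristetraprolin and is known for roles in development and lymphocyte quiescence. The level of Zfp36l1 was 38.5 FPKM in Control and 24.3 FPKM in LIPUS, so that Control was 1.59 times as high (log2 ratio -0.66). A ratio as low was found for 3.04% of the genes with at least 10 FPKM in a group. The gene (ENSMUSG00000021127) lies on the minus strand of chromosome 12 from 80107754 to 80113013.

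Zfp36l2, a paralogue required for oocyte maturation and blood stem cells, was by far the most abundant of the 8 genes. It had 126 FPKM in Control and 114 FPKM in LIPUS, with a log2 ratio of -0.15, well inside the spread of all genes. In Control cells its level was 11.7 times that of Zfp36 and 3.27 times that of Zfp36l1, and it ranked 735 among all genes of the table. Zfp36l3, a paralogue found in rodent placenta, was listed at 0 in both groups.

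The family total was nearly level. LIPUS minus Control was 12.5 FPKM for Zfp36, -14.3 FPKM for Zfp36l1 and -12.3 FPKM for the far more abundant Zfp36l2. The summed level of the 3 genes was 175 FPKM in Control and 161 FPKM in LIPUS, a ratio of 0.920. Its makeup shifted, since Zfp36 accounted for 6.15% of the family FPKM in Control and 14.4% in LIPUS, and Zfp36l1 for 22% and 15.0%. Zfp36l2 kept the major share, 71.9% in Control and 70.5% in LIPUS. Zfp36 stood at 0.280 times the level of Zfp36l1 in Control and at 0.958 times in LIPUS, so that both reached about the same level after stimulation.

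Btg2 was the only Btg/Tob gene past 1.5-fold. It is an antiproliferative gene induced by growth factors and by p53, and its product also binds the arginine methyltransferase Prmt1. Its level was 32.5 FPKM in Control and 53.7 FPKM in LIPUS, 1.65 times as high with LIPUS (log2 ratio 0.72). A ratio as high was found for 2.5% of the genes with at least 10 FPKM in a group, and for 1.57% of the 3052 genes whose mean FPKM lay within 2-fold of its own. Btg2 (ENSMUSG00000020423) lies on the minus strand of chromosome 1 from 134075170 to 134079120.

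The other Btg/Tob genes differed little between the groups, and each was slightly higher with LIPUS, except that Tob1 was even after rescaling both groups to equal totals. Btg1, the closest relative of Btg2 and a gene linked to lymphocyte quiescence, had 56.0 FPKM in Control and 61.9 FPKM in LIPUS (log2 ratio 0.14). Btg3, also called Ana, had 58.2 and 63.7 FPKM (log2 ratio 0.13). Tob1 and Tob2 encode longer proteins that also bind poly(A)-binding protein. Tob1 had 23.9 FPKM in Control and 24.6 FPKM in LIPUS (log2 ratio 0.04), and Tob2 had 16.0 and 17.2 FPKM (log2 ratio 0.10). Btg4, the oocyte member of the family, was listed at 0 in both groups.

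**Figure D2:**
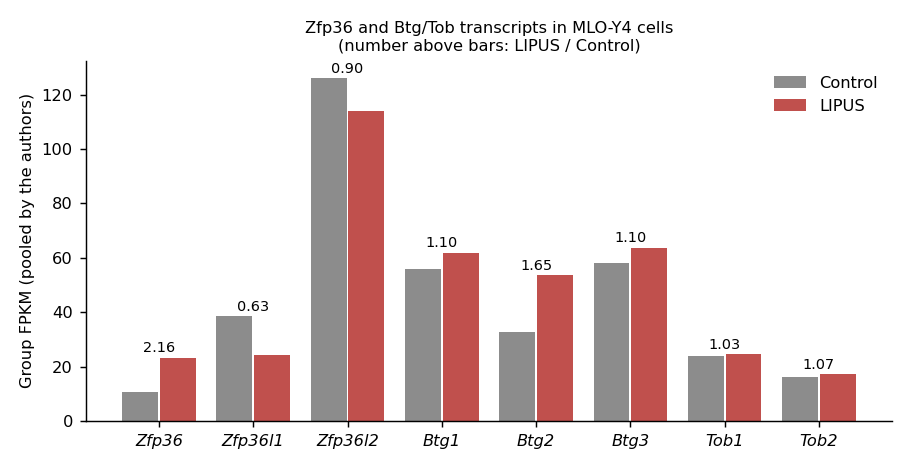
Group FPKM of the 8 genes in Control (grey) and LIPUS (red), pooled by the authors over 3 libraries each and shown without error bars because the table holds no value per library. Numbers above the bars give the ratio of LIPUS to Control, which is 2.16 for Zfp36, 1.65 for Btg2 and 0.63 for Zfp36l1 and lies between 0.90 and 1.10 for the other genes.

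Btg2 carried most of the difference in its family. The summed level of the 5 Btg/Tob genes was 187 FPKM in Control and 221 FPKM in LIPUS, a ratio of 1.18, and Btg2 made up 21.2 FPKM of that difference. Its share of the family FPKM was 17.4% in Control and 24.3% in LIPUS. Btg1 was at 1.72 times the level of Btg2 in Control and at 1.15 times in LIPUS, whereas the ratio of Btg3 to Btg1 was 1.04 in Control and 1.03 in LIPUS. The order of the Btg/Tob genes by level was the same in both groups, with Btg3 and Btg1 almost equal at the top, followed by Btg2, Tob1 and Tob2. Whether neighbours in this order differ beyond the spread of the cultures cannot be read from pooled values.

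**Figure D3:**
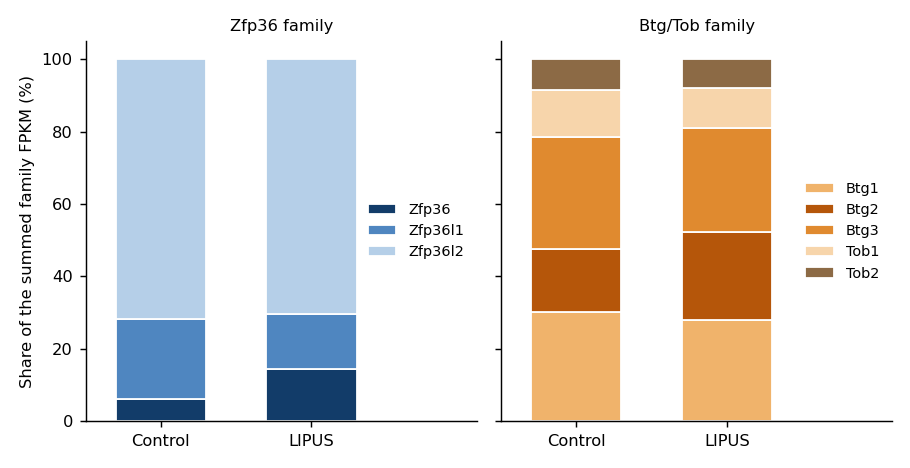
Share of each gene in the summed FPKM of its family (vertical axis, percent), for Control and LIPUS. The segment of Zfp36 widens from 6.15% to 14.4% and that of Btg2 from 17.4% to 24.3%, while Zfp36l2 remains the major segment of the Zfp36 family.

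A ratio of at least 1.5 in either direction, taken after adding 0.1 FPKM to both groups, was used to count genes. Of the 8 genes, 2 were at least 1.5-fold higher with LIPUS (Zfp36 and Btg2) and 1 was at least 1.5-fold lower (Zfp36l1). Of the 11999 genes with an FPKM of at least 1 in a group, 8.98% were at least 1.5-fold higher and 9.26% at least 1.5-fold lower. The ratios of weakly expressed genes spread more widely, and all 8 genes had at least 10 FPKM in a group. Among the 7032 genes at that level, 4.15% were higher and 4.0% lower by the same measure, and the log2 ratio ran from -0.71 to 0.72 once 2.5% of the genes at either end were set aside. Zfp36 lay outside this range, Btg2 at its upper edge and Zfp36l1 inside it. The median log2 ratio of the 8 genes was 0.12, against 0.01 for the genes with at least 10 FPKM. All 8 genes had the status OK in the table, meaning that the authors' program carried out its comparison for them.

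**Figure D4:**
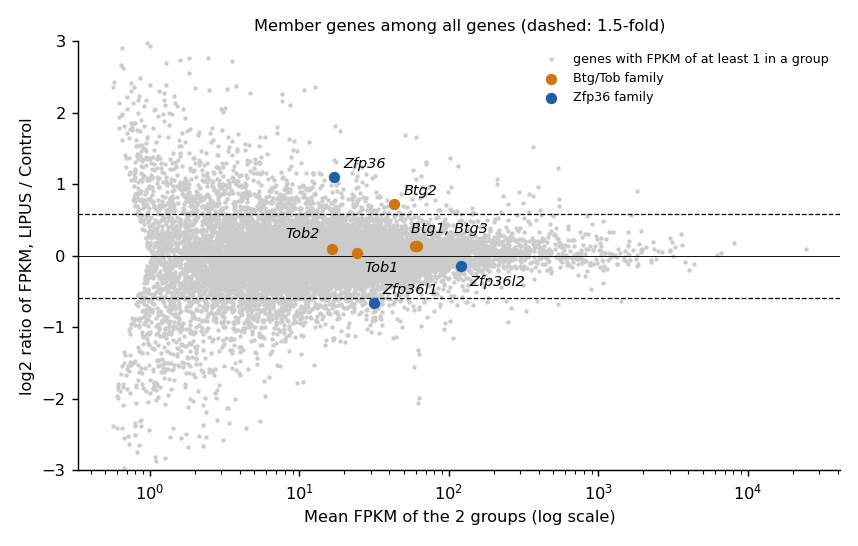
Log2 ratio of LIPUS to Control against the mean FPKM of the 2 groups (log scale) for genes with an FPKM of at least 1 in a group (grey), with the Zfp36 family in blue, the Btg/Tob family in orange and 1.5-fold as dashed lines. Zfp36 and Btg2 lie above the upper line and Zfp36l1 just below the lower line, and 244 genes beyond a log2 ratio of 3 in either direction are not drawn.

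Genes on the opposite strand overlap some of these loci, and no source says if read strand was used in computing the FPKM. Gm44710, an antisense transcript, shares 1274 bases with Zfp36 and had 3.92 FPKM in Control and 2.14 FPKM in LIPUS, the opposite direction to Zfp36. Gm26669 covers 4967 bases of Zfp36l1 from the other strand and had 7.36 FPKM in Control and 6.06 FPKM in LIPUS. Gm49476 shares 565 bases with Tob2 and had 9.19 and 1.76 FPKM. Cxadr meets Btg3 only in the longer gene model of GENCODE M21 and was below 0.1 FPKM in both groups. An antisense gene across Zfp36l2 (AC132455.1) was not analysed here. Reads in these overlaps may have been assigned to either gene, and their part in the values of Zfp36, Zfp36l1 and Tob2 was not tested. Btg1, Btg2 and Tob1 overlap no other annotated gene.

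The promoters of the genes past 1.5-fold differ in the motif matches that they hold. A match describes the sequence and is not a measured binding site, and its part in the differences above was not tested. The 250 bases before the start site of Zfp36, Btg2 and Zfp36l1 are shown from RefSeq (GRCm38.p6), 5′ to 3′ along the transcribed direction, with every match to a searched motif in capitals. The RefSeq start of Zfp36 lies downstream of its start in GENCODE M21, so this window falls within the gene limits given above. The motifs were searched on both strands of the RefSeq windows, which run from 250 bases before to 50 bases after the start, and comprised the cyclic AMP response element TGACGTCA, the Egr site GCGGGGGCG, the AP-1 site TGANTCA, the TATA motif with letters TATAAA and the CArG box bound by serum response factor.
Zfp36, chr7:28379229-28379478, minus strand: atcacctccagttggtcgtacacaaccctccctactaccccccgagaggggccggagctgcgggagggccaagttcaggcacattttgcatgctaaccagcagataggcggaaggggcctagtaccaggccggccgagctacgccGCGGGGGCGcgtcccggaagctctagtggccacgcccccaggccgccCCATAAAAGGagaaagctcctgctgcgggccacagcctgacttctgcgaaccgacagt
Btg2, chr1:134079156-134079405, minus strand: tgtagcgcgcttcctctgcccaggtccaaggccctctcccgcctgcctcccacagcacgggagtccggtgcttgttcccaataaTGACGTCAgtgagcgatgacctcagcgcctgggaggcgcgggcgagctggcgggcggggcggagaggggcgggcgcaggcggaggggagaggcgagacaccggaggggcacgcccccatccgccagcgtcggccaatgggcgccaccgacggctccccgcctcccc
Zfp36l1, chr12:80113014-80113263, minus strand: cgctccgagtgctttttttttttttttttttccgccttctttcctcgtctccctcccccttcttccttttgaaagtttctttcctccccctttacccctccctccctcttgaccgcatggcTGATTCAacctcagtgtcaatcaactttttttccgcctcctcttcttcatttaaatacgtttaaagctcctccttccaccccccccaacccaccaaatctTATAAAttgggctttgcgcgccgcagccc

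Zfp36 held an Egr site at positions -105 to -97 and a CArG box at -58 to -49, counted with -1 as the last base before the start. These motifs occurred in 2.91% and 1.63% of the 32851 RefSeq promoter windows. Btg2 held the cyclic AMP response element at -166 to -159, present in 1.79% of windows. Zfp36l1 held an AP-1 site at -129 to -123 and a TATAAA at -29 to -24, present in 7.81% and 13.6% of windows. No matches overlapped each other. Of the other genes, Btg1 and Tob1 held a TATAAA, and the windows of Btg3 and Tob2 held none of the motifs. Zfp36l2 had no entry.

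The behaviour of Zfp36 and Btg2 was set beside 22 immediate-early genes chosen as a reference. The list is not independent of these data. The paper reports several of its genes, such as Egr1, Egr2, Egr3, Junb and Nr4a1, and also Btg2, as affected by LIPUS in the same libraries. Of the 22 genes, 10 were at least 1.5-fold higher with LIPUS and 0 at least 1.5-fold lower after adding 0.1 FPKM. Before that addition Klf2 was 1.51 times as high in Control. Over all genes with an FPKM of at least 1 in a group, the shares were 8.98% higher and 9.26% lower. The median log2 ratio of the 22 genes was 0.57. Of the 22, 16 had a log2 ratio above 0 and 6 below it, namely Klf2 (-0.58), Atf3 (-0.56), Dusp1 (-0.48), Sgk1 (-0.22), Klf6 (-0.20) and Klf4 (-0.16). Only Egr2 (log2 ratio 1.37), Egr3 (1.26), Fosb (1.20) and Gadd45b (1.12) had a higher ratio than Zfp36. Nr4a1 (0.96), Egr1 (0.83) and Ier5 (0.80) also stood above Btg2, while Junb (0.70), Dusp5 (0.61) and Ier3 (0.61) stood below it. Zfp36l1 had a lower ratio than each of the 22 genes, whereas 15 or 16 of them had a higher ratio than Btg1, Btg3, Tob1, Tob2 and Zfp36l2.

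The genes of the deadenylases that the Zfp36 and Btg/Tob proteins recruit were within 1.5-fold. Of 17 genes of the list of CCR4-NOT and other deadenylases, which also holds the poly(A) polymerase genes Papd5 and Papd7, 0 were at least 1.5-fold higher and 1 at least 1.5-fold lower, with a median log2 ratio of -0.17 and 11 genes below 0. Of the 11999 genes with an FPKM of at least 1 in a group, 8.98% were higher and 9.26% lower by that measure. The log2 ratio was below 0 for 6004 of them. Cnot1, the scaffold to which tristetraprolin binds, had 39.6 FPKM in Control and 35.3 FPKM in LIPUS. The Btg/Tob partners Cnot7 (43.9 and 46.4 FPKM) and Cnot8 (19.4 and 20.5 FPKM) had log2 ratios of 0.08. The gene past the threshold was Papd5 (Tent4b; 18 FPKM in Control and 10.9 in LIPUS), whose product, like that of Papd7 (Tent4a; 23.1 and 18.1 FPKM), extends poly(A) tails and is no deadenylase. Among the 10 poly(A)-binding proteins and their partners, none passed 1.5-fold in either direction, against the same shares of all genes. The largest ratios there at 10 FPKM or more belonged to Tnrc6a (log2 ratio -0.54), Pabpn1 (0.22) and Pabpc4 (-0.22).

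The enzymes that degrade deadenylated mRNA were described in the same way. The counts stand against 8.98% of all genes with an FPKM of at least 1 in a group at least 1.5-fold higher and 9.26% lower. Of these 11999 genes, 6004 had a log2 ratio below 0. Of the 18 genes of decapping and 5′ to 3′ decay, 14 had a log2 ratio below 0, with a median of -0.14, and 2 were at least 1.5-fold lower. These were Lsm5, a subunit of the Lsm ring (83.4 FPKM in Control and 54.6 in LIPUS), and Edc3, a decapping enhancer below 10 FPKM (6.33 and 3.95). Of the 15 genes of the exosome, its cofactors and other 3′ to 5′ decay with at least 1 FPKM, 11 had a log2 ratio above 0, with a median of 0.18. The largest ratios at 10 FPKM or more belonged to Skiv2l (0.46), the helicase of the SKI complex that feeds RNA to the exosome, and to the exosome subunits Exosc7 (0.43) and Exosc5 (0.40), and Dis3l, at 5.95 and 9.80 FPKM, was the only one past 1.5-fold.

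Other RNA-binding regulators of stability lay on both sides of even, with 9 of 21 genes above 0, 12 below 0, a range of log2 ratios from -0.83 to 0.78 and a median of -0.01. Zc3h12a, which encodes the endonuclease Regnase-1 and acts on overlapping cytokine mRNAs, had 16.4 FPKM in Control and 28.3 FPKM in LIPUS (log2 ratio 0.78), a ratio between those of Btg2 and Zfp36. After adding 0.1 FPKM, the only gene at least 1.5-fold lower was Zc3h12b, at 1.21 and 0.639 FPKM. Before that addition Igf2bp1, at 1.44 and 0.936 FPKM, was also 1.54 times as high in Control. Of all genes with an FPKM of at least 1 in a group, 8.98% were at least 1.5-fold higher and 9.26% lower. Elavl1, which encodes the stabilising factor HuR, had 40.9 and 48.1 FPKM, and Hnrnpd had 211 and 220 FPKM. Of the 15 kinases, phosphatases and adaptor proteins that control Zfp36 proteins, none passed 1.5-fold. The largest ratios there at 10 FPKM or more belonged to Dusp1, a phosphatase of p38 (log2 ratio -0.48), and to the p38-dependent kinases Mapkapk3 (-0.40) and Mapkapk2 (0.37). Edc3, Dis3l, Zc3h12b, Igf2bp1, Tnf, Elavl1, Hnrnpd, Vegfa, Lif, Myc, Ccnd1, Papd7, Cxcl1, Cxcl2, Klf2, Atf3, Sgk1, Klf6 and Klf4 were named after their values had been seen.

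Among 25 mRNAs known as Zfp36 targets, 15 reached 1 FPKM and 6 were listed at 0. The median log2 ratio of these 15 was 0.33, with 11 above 0 and 4 below 0, 5 at least 1.5-fold higher and 1 at least 1.5-fold lower, against 8.98% and 9.26% of all genes with at least 1 FPKM in a group. Ptgs2, the inducible cyclooxygenase, had 205 FPKM in Control and 381 FPKM in LIPUS, and Il6 had 8.98 and 16.5 FPKM. Plau, the urokinase-type plasminogen activator, had 271 and 416 FPKM and Ier3 had 86.9 and 133 FPKM. Tnf, the classical target of tristetraprolin, also passed 1.5-fold but at the low level of 3.12 and 4.93 FPKM. The gene past 1.5-fold in the other direction was the chemokine gene Ccl2, with 23.7 FPKM in Control and 12.9 FPKM in LIPUS. The chemokine genes Cxcl1 (21.1 and 16.5 FPKM) and Cxcl2 (1.73 and 1.19 FPKM) were also lower with LIPUS, within 1.5-fold. Vegfa (728 and 901 FPKM), Lif (122 and 170 FPKM), Myc (209 and 237 FPKM) and Ccnd1 (110 and 99.4 FPKM) lay within 1.5-fold. Several of these targets are immediate-early or inflammatory genes in their own right, and RNA levels alone cannot tell synthesis from decay.

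**Figure D5:**
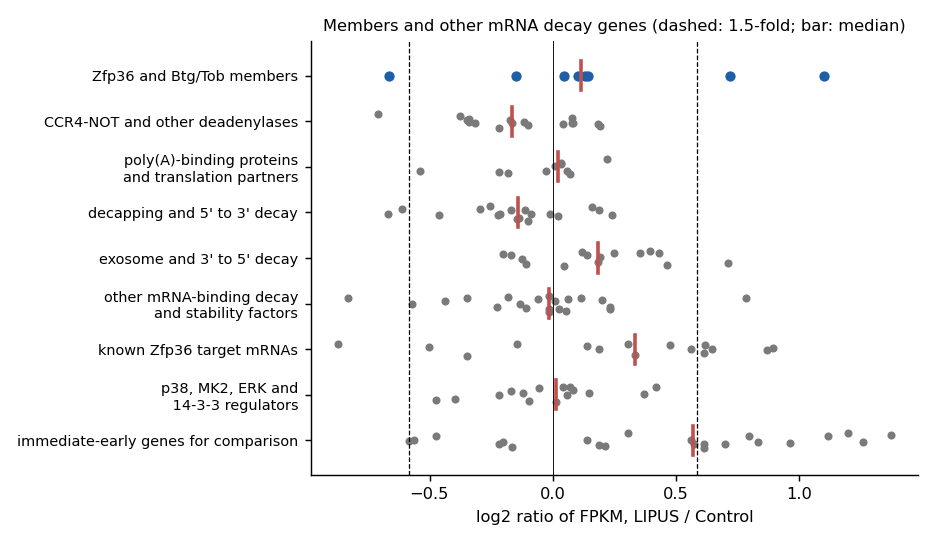
Log2 ratio of LIPUS to Control (horizontal axis) for the 8 genes (blue) and for the genes of 8 other lists with an FPKM of at least 1 in a group (grey), with the median of each list as a red bar and 1.5-fold as dashed lines. The medians of the lists of decay enzymes lie between -0.17 and 0.18, that of the known Zfp36 targets at 0.33 and that of the immediate-early genes at 0.57.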

How the data were processed

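The 3 LIPUS and 3 Control libraries (stranded mRNA, paired reads of 100 bases) were processed by the authors with Trimmomatic 0.36, TopHat2 2.1.0 and Bowtie2 2.2.6.0 on GRCm38 (versions per the submitters' processing notes), and with Cufflinks and Cuffdiff. The notes give Cufflinks 2.1.1 and the methods of the paper another release. The authors deposited a table with 1 FPKM per group, pooled over libraries. Its fold changes, test statistics, p-values and q-values are the authors' own comparison and were not used. The methods of the paper state a read number per sample, but the mapped depth behind each library's values is not in the table.

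Log2 ratios were computed as log2((LIPUS FPKM + 0.1)/(Control FPKM + 0.1)). This scale slightly understates the ratios of low genes. Other ratios, shares and sums used the deposited FPKM as such. Genes with an FPKM of at least 1 in a group were counted past 1.5-fold on this log2 scale, with no test. The counting step was tested on simulated data. The genes and lists were chosen with earlier results of these data known. All 8 genes were named, and from each pathway list those past 1.5-fold at 10 FPKM or more, or otherwise the 3 largest ratios at that level, besides Cnot1, Cnot7 and Cnot8. No gene was named for a similar pattern, since 2 values form none. List genes were matched by symbol or RefSeq synonym, annotation by Ensembl identifier (GENCODE M21), and promoters by symbol. RefSeq promoter entries matched 7 of the 8 genes (Btg3 has 2). Protein sequences were not used here. Alternatives were other pseudocounts, scalings, filters and fold thresholds. Python 3.11.15, numpy 2.4.6, pandas 2.3.3 and matplotlib 3.10.9 were used.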

Additional observations from a re-analysis of the deposited data

How the results depend on the processing

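No paired analysis was possible because the table holds a pooled value per group and no value per replicate, and for the same reason no replicate could be left out. Under the other pseudocounts and scalings the log2 ratio lay between 1.04 and 1.11 for Zfp36, between 0.68 and 0.72 for Btg2 and between -0.71 and -0.64 for Zfp36l1, and the 2 higher genes and 1 lower gene stayed past 1.5-fold. At a threshold of 2-fold, 1 gene was higher (Zfp36) and 0 were lower, against 4.01% of all genes in each direction. At the lowest fold threshold tried, 18% of all genes were higher and 18.7% lower. The filter moved the share of all genes past 1.5-fold most. It was 15.5% higher and 16.6% lower without a filter, 4.15% and 4.0% at 10 FPKM or more, 4.64% and 4.67% among genes with the status OK, and 3.52% and 3.61% among genes with a mean FPKM between 10 and 130, a band chosen after seeing the data. Of 146 alternative values, 132 stayed within the tolerance of 0.1 on the log2 scale (counts and shares within 1.5 times). All alternatives reuse the same 2 pooled values per gene, so this tally does not measure the spread between cultures. All 8 genes passed every filter, so the filters could not change their counts. No value past 1.5-fold changed sign, but some near 0 did. The medians of the poly(A)-binding and p38 lists changed sign on rescaling to equal totals (-0.02 and -0.03) and at 10 FPKM or more (-0.01 and -0.02), and the p38 median also did so among genes with the status OK (-0.02). The median of the other RNA-binding regulators went from -0.01 to 0.0080 at 10 FPKM or more and among genes with the status OK. Tob1 ranged from -0.00062, on rescaling to equal totals, to 0.045.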
